A study of Homo sapiens with 8 samples.

Results

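The genes of distal chromosome 11q were taken as the rows of the deposited expression table that lie on chromosome 11 (hg19) and start between 76156069 and 134246218, without rows that hold a small RNA. They run from EMSY to GLB1L2 over 58.1 Mb and number 449 of the 27757 rows of the table. The stretch was marked out because its genes were higher in SYK-KO than in SYK-WT libraries, so the difference between the genotypes is given below as a description, without a test. The cells were OVISE, a long-established ovarian carcinoma line of clear cell type, either SYK-WT, with the wild-type gene, or SYK-KO, with SYK targeted in exon 2 by a Cas9 nickase and a pair of guides. SYK is a non-receptor tyrosine kinase. Each genotype was left untreated or treated for 24 h with 50 ng/ml of epidermal growth factor (EGF), which makes 4 groups of 2 libraries. Per the labels' protocols, transfected cells were selected with puromycin and grown out as single-cell clones. The number of clones behind the SYK-KO libraries is not given, nor is the origin of the SYK-WT cells from a clone or a bulk culture, so the genotype cannot be told apart from the history of the cells compared. Separate cultures behind the libraries of 1 group are not stated, so every p-value measures only the spread between these libraries.

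Genes of a chromosome arm do not form a pathway. Neighbours are mostly unrelated in function, apart from families that arose by local duplication and still lie side by side. Distal 11q carries several such families, among them a cluster of matrix metalloproteinases, which degrade extracellular matrix, the inflammatory caspases, and the inhibitors of apoptosis BIRC2 and BIRC3 beside YAP1, the transcriptional coactivator of the Hippo pathway. The arm also carries ATM, the kinase that signals DNA double-strand breaks, CBL, the ubiquitin ligase that directs activated EGFR to degradation, GAB2, an adaptor of receptor tyrosine kinases, PAK1, a kinase downstream of Rac and Cdc42, and ETS1, a transcription factor phosphorylated by ERK. EGF binds EGFR and activates ERK signalling, through which many immediate and delayed target genes are induced.

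Promoter sequences are given for ACER3, an alkaline ceramidase, and BIRC3, which were among the members that EGF raised in both genotypes below. Both are printed 5′ to 3′ on the strand of the gene from RefSeq (GRCh38.p14), from 250 bases before to 50 bases after the start. They were searched on both strands for the AP-1 motif TGAGTCA or its reverse complement TGACTCA. They were also searched for the kB consensus of NF-kappaB, which was added after the sequences had been seen. Capitals mark the kB consensus, which begins at base 52 of the BIRC3 window.
ACER3, chr11:76860668-76860967, plus strand: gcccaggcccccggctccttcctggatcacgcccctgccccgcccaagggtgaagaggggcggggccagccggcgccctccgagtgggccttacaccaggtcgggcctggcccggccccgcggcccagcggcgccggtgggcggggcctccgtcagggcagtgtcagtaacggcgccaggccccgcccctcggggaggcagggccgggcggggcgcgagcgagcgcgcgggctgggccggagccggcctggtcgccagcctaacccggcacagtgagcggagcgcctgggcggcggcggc
BIRC3, chr11:102317234-102317533, plus strand: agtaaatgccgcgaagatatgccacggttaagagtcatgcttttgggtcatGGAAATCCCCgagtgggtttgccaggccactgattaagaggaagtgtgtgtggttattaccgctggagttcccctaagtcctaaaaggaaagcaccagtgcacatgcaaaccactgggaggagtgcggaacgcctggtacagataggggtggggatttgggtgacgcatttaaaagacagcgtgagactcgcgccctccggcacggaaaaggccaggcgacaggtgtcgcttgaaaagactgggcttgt
Neither window holds the AP-1 motif, which says only that these letters are not in it. The motif occurs in 1738 of 35116 promoters of the same 300 bases (4.95%), and in those of 3 of the 154 tested members that had an entry (1.95%). The kB consensus occurs in 2714 promoters (7.73%), and in those of 13 of the 154 members (8.44%). The shares over all promoters count entries, of which a gene can have more than 1, and those of members count genes. They are therefore not like for like. Of the 15 members that EGF raised in both genotypes, 7 had an entry. Of these, 0 held the AP-1 motif and 1, BIRC3, the kB consensus. The rest had no entry and were not searched, among them MMP1 and ETS1, the largest rises in SYK-WT cells. A link between these motifs and the EGF responses was not tested.

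Levels are in FPKM, fragments scaled to transcript length and to the number of fragments in a library, and differences are of log2(FPKM + 1), a scale that understates the change of low genes. A row entered the fit where at least 2 libraries reached 1 FPKM, which held for 12112 rows and for 197 of the 449 members. Of the other 252 members, 121 were listed at 0 in every library. Among the tested members, 68 lie at a locus that overlaps another row, and 4 merge genes, so their values are less certain. SYK itself ranged from 2.80 to 5.30 FPKM and was lower in the SYK-KO libraries. All 6 markers of clear cell carcinoma and all 5 of epithelium reached 1 FPKM, while 0 of 4 fibroblast and 0 of 3 endothelial markers did. Of 4 haematopoietic markers 2 did, CD68 (12.3 to 34.4 FPKM) and LAPTM5 (2.78 to 6.03 FPKM). The others, PTPRC and CD14, reached at most 0.0216 and 0.101 FPKM. The summed clear cell markers were higher in SYK-KO (2848 to 3479 FPKM) than in SYK-WT libraries (1813 to 2258 FPKM), and the summed epithelial markers higher with EGF (12487 to 14145 FPKM) than without (6601 to 9421 FPKM). SPP1 made up most of the clear cell sum, while NAPSA and ANXA4 were lower in SYK-KO than in SYK-WT libraries of the same treatment. The keratins made up most of the epithelial sum, and CDH1, the adhesion molecule E-cadherin, went the other way, with 84.7 and 90.8 FPKM in SYK-WT, 38.0 and 44.5 in SYK-KO, 61.9 and 61.4 in SYK-WT EGF and 30.7 and 35.6 in SYK-KO EGF. The part of these markers in the results below was not tested, and in bulk RNA fewer cells of a type and less RNA per cell cannot be told apart. The SYK-WT pair differed most, with a median absolute difference between its members' values of 0.16 on the log2 scale, while the pairs of SYK-KO and SYK-WT EGF libraries differed by 0.07 and the SYK-KO EGF pair by 0.10.

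Most tested members were slightly higher in SYK-KO cells. Relative to each gene's mean over the 8 libraries, the median member stood at -0.13 and -0.19 in the SYK-WT libraries, at 0.16 and 0.15 in SYK-KO, at -0.16 and -0.18 in SYK-WT EGF and at 0.15 and 0.16 in SYK-KO EGF. All 4 SYK-WT libraries thus lay below all 4 SYK-KO libraries, with or without EGF, whereas the genes of other chromosomes stayed between -0.01 and 0.01. The median difference of SYK-KO from SYK-WT was 0.31 untreated and 0.29 with EGF, which are 1.24-fold and 1.22-fold. Taken library by library, the median ran from 0.30 to 0.35 over the 4 untreated pairs and from 0.30 to 0.32 over the 4 pairs with EGF.

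**Figure D1:**
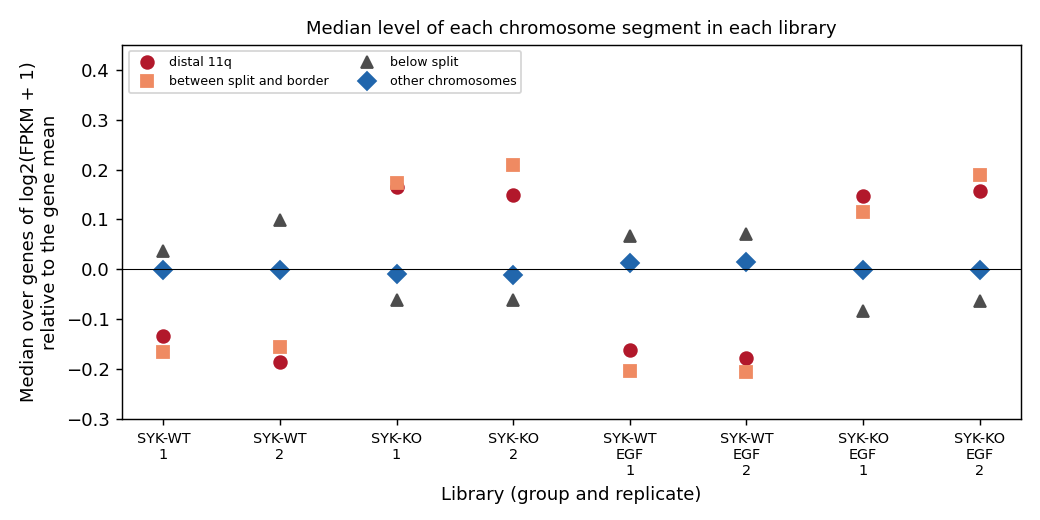
Median level of the genes of each chromosome segment in each of the 8 libraries (x axis), as log2(FPKM + 1) relative to the gene's mean over all libraries (y axis). Distal 11q and the genes between the split and its border lie below 0 in the 4 SYK-WT and above 0 in the 4 SYK-KO libraries, and other chromosomes lie between -0.01 and 0.01.

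The difference was above 0 in 171 of 197 members untreated (86.8%) and in 170 with EGF (86.3%), against 49.3% and 47.6% of all tested genes without small RNAs. In 148 members (75.1%) both untreated SYK-KO libraries exceeded both SYK-WT libraries, as they did in 34.2% of all tested rows. With EGF the count was 158 (80.2%), against 37.7% of all rows. In 138 members (70.1%) the SYK-KO libraries were higher without overlap in both conditions, against 27.7% of all rows, and in 7 (3.55%) they were lower in both, against 29.5%. SYK-KO libraries were lower without overlap in 11 members untreated (5.58%) and 13 with EGF (6.6%), against 35.9% and 41.2% of all rows. Because the stretch was chosen on this difference, these counts only describe it. They also include low members such as KDM4D and POU2F3, which reached 1 FPKM only in SYK-KO libraries and were tested because of them. The genotype difference was similar with and without EGF: over the 197 members, the untreated and the EGF difference had a Pearson correlation of 0.87 and a Spearman correlation of 0.81, from 2 sets of libraries that share the cells, the gene lengths and the sequencing.

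The added 1 FPKM shrinks the differences of low genes, so ratios of FPKM without it were also taken. For the 110 members with a mean of at least 5 FPKM, this median ratio was 1.36 untreated and 1.31 with EGF. The same ratio was 0.984 and 0.968 for 7512 genes of other chromosomes. By level, the median untreated ratio of members was 1.28 below 2 FPKM (28 members), 1.19 from 2 to 5 FPKM (59), 1.35 from 5 to 20 FPKM (75) and 1.37 above (35). With EGF these ratios were 1.40, 1.24, 1.33 and 1.31. Neither condition showed a steady order by level. The ratios below 2 FPKM are the least certain, since a low member could pass the filter through the SYK-KO libraries alone.

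The members with the most transcript shared the difference. RPS25, a protein of the small ribosomal subunit, had 1687 and 1598 FPKM in SYK-WT, 2518 and 2377 in SYK-KO, 1695 and 1632 in SYK-WT EGF, and 2475 and 2334 in SYK-KO EGF libraries. Its SYK-KO libraries were all above its SYK-WT libraries, by 0.57 ± 0.070 untreated and 0.53 ± 0.070 with EGF (log2 scale, SE, n = 2 libraries per group). APLP2, a relative of the amyloid precursor protein, had 339 and 369 FPKM in SYK-WT and 462 and 491 in SYK-KO, and with EGF 292 and 314 against 413 and 441. Its groups did not overlap either. ATP5MG, a subunit of mitochondrial ATP synthase, went from 122 and 133 FPKM in SYK-WT to 210 and 192 in SYK-KO, and with EGF from 131 and 125 to 201 and 193. IL18, the inflammasome-processed cytokine, stood at 104 and 80.8 against 157 and 142 FPKM untreated and at 107 and 103 against 148 and 130 with EGF. TMPRSS4, a transmembrane serine protease, and HSPA8, the constitutive HSP70 chaperone, differed less, by 0.34 ± 0.117 and 0.26 ± 0.108 untreated and by 0.29 ± 0.117 and 0.18 ± 0.108 with EGF. For all 6 of these genes the SYK-KO libraries exceeded the SYK-WT libraries of the same treatment without overlap.

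The differences were spread no more widely among members than among genes elsewhere. The interquartile range of the difference, averaged over both treatments, was 0.36 for distal 11q, 0.39 for chromosome 11 below the split described next and 0.43 for other chromosomes. Set against other chromosomes, the 10th percentile of members was higher by 0.40, the lower quartile by 0.37, the median by 0.33, the upper quartile by 0.29 and the 90th percentile by 0.29. The whole distribution was thus displaced, with no separate group of shifted genes visible in the plot of cumulative shares. Of the members, 123 (62.4%) lay within 0.25 of their median, 10 were at 1 or above and 1 was at -1 or below. For other chromosomes 56.2% lay within 0.25 of their median.

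**Figure D2:**
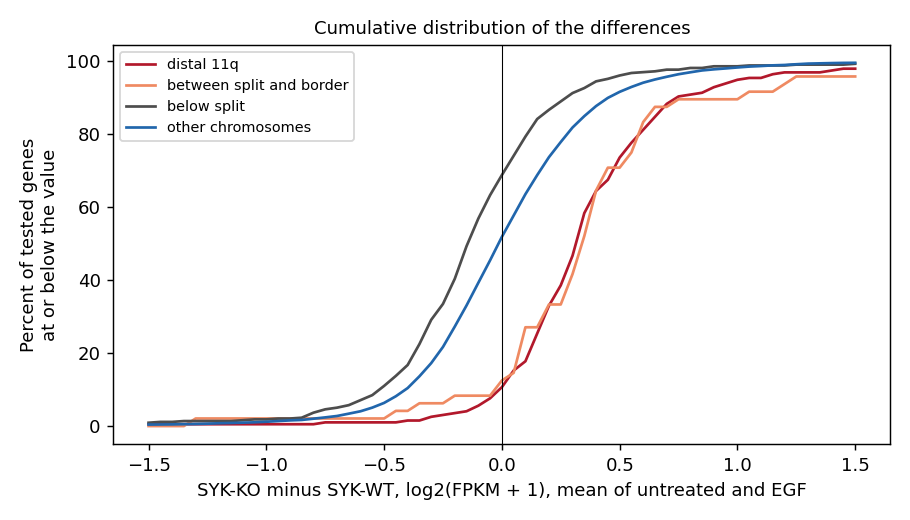
Percent of tested genes (y axis) whose SYK-KO minus SYK-WT difference, averaged over untreated and EGF on the log2(FPKM + 1) scale (x axis), is at or below each value, for 4 segments of the genome. The line of distal 11q (197 genes) runs to the right of that of other chromosomes (11259 genes), by 0.40 at the 10th and 0.29 at the 90th percentile.

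Along the arm the difference was present throughout. The median of the averaged difference was 0.31 over the first 50 tested members from the border, 0.29 over the next 50, 0.32 over the third block and 0.33 over the last 47. In bins of 5 Mb from 75 Mb to the end of the arm, the 12 medians ran from 0.17 to 0.45, and in the 13 bins below 70 Mb that held tested genes they ran from -0.24 to -0.05. The running median of 15 genes stayed between 0.15 and 0.50 in the region. Its 429 windows below the split ran from -0.43 to 0.14, and 33 of them were above 0. Over 215 windows of 50 genes on other chromosomes the median ran from -0.37 to 0.52, and 6 windows reached the 0.31 of distal 11q. The highest of them lay on chromosome 4 between 152330398 and 183838630, and blocks of similar medians lay on chromosomes 18 and 19. A median of this size over 50 genes was therefore not confined to distal 11q. The 4 blocks of its members were all at 0.29 or above, but adjoining blocks were as high elsewhere. They had 0.35 and 0.52 on chromosome 4, 0.31 and 0.41 on chromosome 19, and 0.30 and 0.29 on chromosome X. Among whole chromosomes, medians ran from -0.14 on chromosome 8 to 0.25 on chromosome X.

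**Figure D3:**
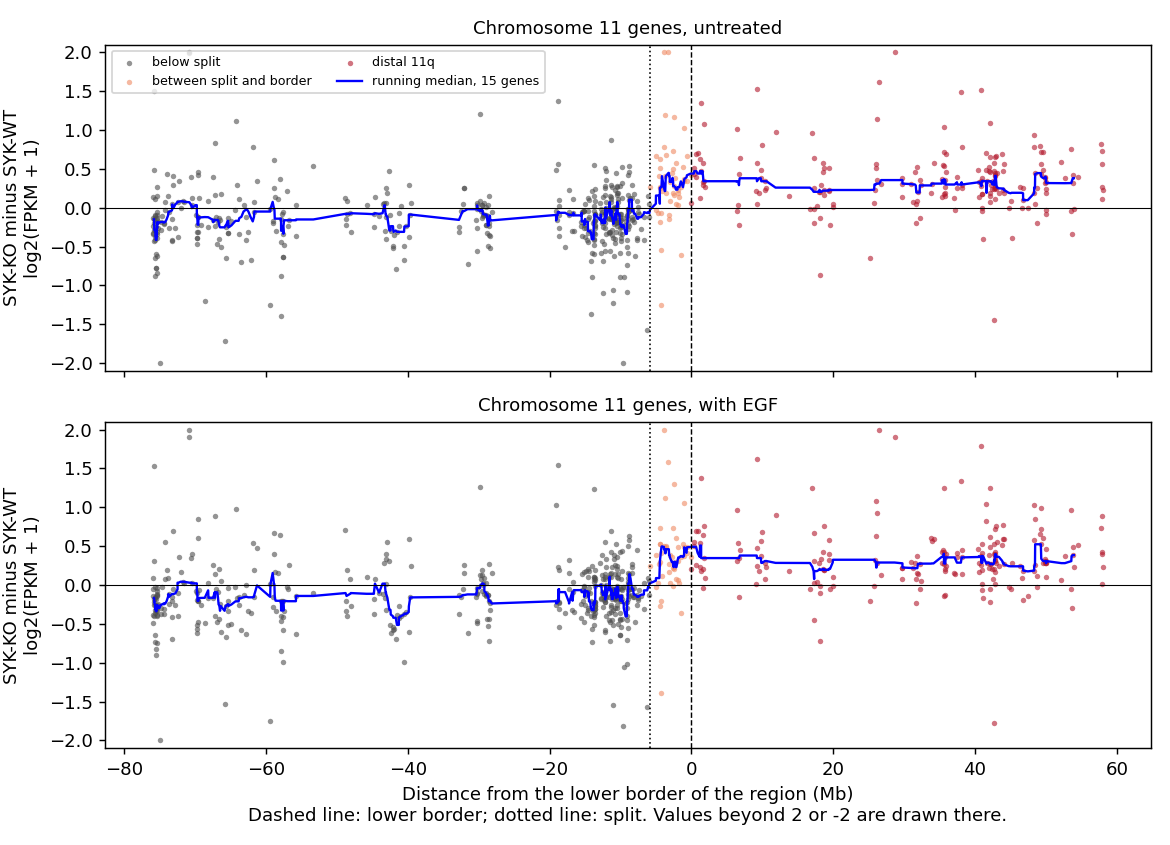
SYK-KO minus SYK-WT difference in log2(FPKM + 1) (y axis) of each tested gene of chromosome 11 by distance from the lower border of the region in Mb (x axis), untreated above and with EGF below, with the running median of 15 genes. The dotted line is the split, 5.84 Mb below the border (dashed line). Below the split the median difference is -0.13 untreated and -0.15 with EGF. Between the split and the border it is already 0.31 and 0.36. From the border the running median stays above 0 to the end of the arm in both conditions.

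The lower border of the region did not coincide with the place where the difference began. The single split of chromosome 11 that left the smallest sum of absolute deviations from 2 medians fell between CTTN (70244612 to 70282690), which encodes the actin-binding protein cortactin, and SHANK2 (70313961 to 70935842), a synaptic scaffold gene. It fell there untreated, with EGF and for their mean, 5.84 Mb below the border. The 48 tested genes between the split and the border had a median difference of 0.31 untreated and 0.36 with EGF, and the 436 genes below the split had -0.13 and -0.15. With the region extended to the split, its median was 0.31 untreated and 0.30 with EGF. The split stayed at SHANK2 with each library left out, and moved to 71709958 with no filter on low values. With at least 5 FPKM, SHANK2 was not kept, and the split fell between CTTN and DHCR7 (71145457), the last enzyme of cholesterol synthesis. DHCR7 is the next tested row after SHANK2, so the split stayed directly above CTTN.

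Single genes did not mark the split sharply. On its lower side, CTTN had 77.4 and 82.9 FPKM in SYK-WT and 73.0 and 74.2 in SYK-KO, a difference of -0.12 that EGF left at -0.12. The cyclin CCND1 had -0.42 and -0.31, and the death receptor adaptor FADD had 0.16 and 0.09. On its upper side, SHANK2 had 1.03 and 1.16 FPKM in SYK-WT against 1.42 and 1.60 in SYK-KO, and DHCR7 had 109 and 107 against 177 and 167. NADSYN1, a gene of NAD synthesis directly beyond DHCR7, had -0.03 in both conditions. Some neighbours stood far from the median of the stretch. The phosphodiesterase PDE2A had 4.69 and 4.43 FPKM in SYK-WT and 33.2 and 33.1 in SYK-KO, whereas the folate receptor gene FOLR3 had 77.2 and 76.1 against 35.0 and 28.6. These last 2 genes were chosen after their values were seen.

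The genes just outside and just inside the border had much the same differences. Outside it, DGAT2, which makes triglycerides, had 0.66 untreated and 0.49 with EGF, UVRAG, a component of an autophagy kinase complex, 0.34 and 0.42, and THAP12 0.42 and 0.36. KLHL35 (1.03 and 1.06) and GDPD5 (0.37 and 0.49) lay next to them. KLHL35 reached 1 FPKM only in SYK-KO libraries, and GDPD5 only in these and in SYK-WT EGF replicate 1. Both were tested because of the SYK-KO libraries, so nothing is read from their differences. Inside it, EMSY, a partner of BRCA2, was the member nearest the border and had 0.06 ± 0.077 and 0.21 ± 0.077. The SYK-WT libraries held 2.11 and 1.93 FPKM and the SYK-KO libraries 2.21 and 2.07, and the groups overlapped untreated. The following members were higher: TSKU (0.51 and 0.51), ACER3 (0.44 and 0.55), the calpain CAPN5 (0.69 and 0.69) and MYO7A, an unconventional myosin (0.39 and 0.25). At the upper end, THYN1 had 0.72 and 0.43, the mitochondrial dehydrogenase ACAD8 0.12 and 0.01, and GLB1L2, related to beta-galactosidase, 0.22 and 0.24.

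The families that lie side by side showed mostly silent members and a few that departed from the median. In the cluster of 9 matrix metalloproteinases, 2 were tested, 5 were listed at 0 in every library, and MMP10 and MMP13 reached at most 0.269 FPKM. MMP7, the epithelial matrilysin, had 10.6 and 9.31 FPKM in SYK-WT, 19.4 and 27.6 in SYK-KO, 8.05 and 8.05 in SYK-WT EGF and 14.8 and 17.6 in SYK-KO EGF. Both SYK-KO groups lay above both SYK-WT groups. MMP1, the interstitial collagenase, had 0.272 and 0.344 FPKM in SYK-WT, 2.93 and 3.13 in SYK-KO, 5.75 and 4.54 in SYK-WT EGF and 49.0 and 63.6 in SYK-KO EGF. Its 4 groups did not overlap, and the level was highest with EGF in SYK-KO cells. MMP1 shares its locus with MMP3, listed at 0 in every library, and with a pseudogene that reached at most 0.0163 FPKM.

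In the cluster of inflammatory caspases, CASP4 alone of 7 listed genes was tested. CASP4, a caspase that senses bacterial lipopolysaccharide in the cytosol, had 13.1 and 9.73 FPKM in SYK-WT, 61.6 and 54.9 in SYK-KO, 18.1 and 16.1 in SYK-WT EGF and 69.9 and 63.4 in SYK-KO EGF. The genotype difference was 2.27 ± 0.131 untreated and 1.90 ± 0.131 with EGF. Its neighbours CASP1 and CASP5 stayed at or below 0.154 FPKM in every library.

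YAP1, BIRC3 and BIRC2 lie next to one another between 101981192 and 102249401, a stretch amplified in some carcinomas. YAP1 had 19.8 and 22.3 FPKM in SYK-WT, 23.7 and 26.1 in SYK-KO, 23.5 and 23.9 in SYK-WT EGF and 28.6 and 31.3 in SYK-KO EGF, with differences close to the members' median (0.23 and 0.33). BIRC2 had 8.33 and 7.52, 11.0 and 12.4, 10.9 and 11.3, and 18.1 and 17.2 FPKM in the same order, with differences of 0.51 and 0.63. BIRC3 had 2.17 and 1.12, 2.62 and 3.03, 2.79 and 3.22, and 6.70 and 8.26 FPKM, with differences of 0.56 and 1.08. For all 3 genes the SYK-KO libraries exceeded the SYK-WT libraries of the same treatment, and the distance was largest for BIRC3 with EGF. The difference averaged over both treatments was above 0 in 4 of 13 genes tied to YAP1 and the BIRC proteins outside distal 11q. Its median over these genes was -0.16. They include partners, such as the TEAD factors, the LATS kinases and XIAP, and the YAP target genes CCN1, CCN2 and ANKRD1. CCN2 (-2.26) and ANKRD1 (1.23) were the extremes of the list, and each reached 1 FPKM in only 1 genotype. Of the TEAD factors, TEAD1 lies on chromosome 11 below the split and had -0.63.

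Members were grouped in lists and set beside listed partners encoded outside distal 11q, as a description. For every list, the count above 0 and the median are of the difference averaged over both treatments. Of all 197 tested members, 176 (89.3%) were above 0 on this average. The stretch was chosen on this difference, so high counts in its lists, and the contrast with partners elsewhere, follow from that choice. All 8 tested genes of the DNA damage signalling list on distal 11q were above 0, with a median of 0.27. Of the partners elsewhere, 4 of 8 were above 0 with a median of -0.01, and the median over all tested genes was -0.01. The list is broad, since it also counts NPAT (0.12) and DDX10 (0.17), which are not themselves DNA damage signalling genes. The checkpoint kinase CHEK1 was highest, with 3.54 and 3.83 FPKM in SYK-WT and 6.48 and 6.94 in SYK-KO, and 3.16 and 3.02 against 7.32 and 6.91 with EGF. ATM had 2.60 and 2.32 against 3.05 and 2.88 FPKM untreated and 2.11 and 2.13 against 2.24 and 2.65 with EGF. Its differences, 0.20 ± 0.090 and 0.14 ± 0.090, were below the members' median although its groups did not overlap. MRE11, the nuclease that acts with RAD50 and NBN at DNA breaks, had a mean difference of 0.24, while RAD50 (chromosome 5) had -0.08. The histone variant H2AX had 0.30.

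Chromatin genes had the lowest median of the lists on the arm: 6 of 7 were above 0 with a median of 0.18, against 4 of 11 partners with -0.06. Among the 6, KDM4D reached 1 FPKM only in the untreated SYK-KO libraries and was tested because of them, so nothing is read from its sign. EED, a core subunit of the Polycomb methyltransferase PRC2, had 0.38 in each condition, and the methyltransferase KMT2A 0.19 and 0.28. All 13 tested mitochondrial genes were above 0 on this average, with a median of 0.32, against 5 of 14 partners with a median of -0.08. With EGF alone, TIMM8B (-0.12) and FDXACB1 (-0.14) were below 0. NDUFC2 of respiratory complex I, at a merged row, had a mean difference of 0.61. Subunits encoded elsewhere had 0.95 (NDUFC1), 0.67 (NDUFA1) and -0.19 (NDUFB3). Of these, NDUFC1 on chromosome 4 and NDUFA1 on chromosome X lie in windows of 50 genes with medians of 0.35 and 0.29. The adrenodoxin gene FDX1 had 0.58. SDHD, a membrane anchor of succinate dehydrogenase, had 0.16 beside -0.03 for SDHA, -0.23 for SDHB and -0.04 for SDHC. The vesicle sorting list, which also counts the membrane protein TMEM123, had 6 of 8 above 0 and a median of 0.24, against 5 of 17 partners with -0.10. PICALM, a clathrin adaptor, had 0.19, and ARCN1, a subunit of the COPI coat, 0.28. The 5 other COPI subunits listed ranged from -0.13 for COPB2 to 0.50 for COPE, so ARCN1 lay within their range.

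Other groups lay at or above the members' median. All 8 chaperone and protein folding genes were above 0 with a median of 0.46, among them HYOU1, a chaperone of the endoplasmic reticulum (0.43), and STT3A, the catalytic subunit of oligosaccharyltransferase (0.48). All 10 ubiquitin ligase and protease genes were above 0 with a median of 0.43, from 0.01 for UBE4A to 0.82 for BIRC3. Of 11 signalling genes 10 were above 0, with a median of 0.33. PAK1 had 4.03 and 4.81 FPKM in SYK-WT, 7.80 and 7.84 in SYK-KO, 5.08 and 4.55 in SYK-WT EGF and 8.27 and 8.47 in SYK-KO EGF, with no overlap between genotypes. GAB2 had 1.11 and 1.03 FPKM in SYK-WT and 3.35 and 3.36 in SYK-KO, and 2.34 and 2.61 against 4.77 and 5.01 with EGF. All 6 tested adhesion genes were above 0 with a median of 0.40, and 10 of the 16 listed were not tested. The 5 tested peptidase and lysosome genes had the highest median of the lists with more than 3 tested genes, 0.69. Among them, the lysosomal peptidase CTSC had 16.6 and 10.0 FPKM in SYK-WT and 26.1 and 26.7 in SYK-KO, and PRCP, a carboxypeptidase, 6.38 and 6.75 against 13.2 and 14.4 with EGF. Each group describes a few genes that share the displacement of their neighbours.

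Beside MMP1 and CASP4, 6 members of at least 5 FPKM lay furthest above the median. NNMT, which methylates nicotinamide, had 49.3 and 44.2 FPKM in SYK-WT, 137 and 129 in SYK-KO, 56.9 and 50.5 in SYK-WT EGF and 133 and 141 in SYK-KO EGF. TAGLN, the actin-binding protein transgelin of smooth muscle, had 1.33 and 0.976, 5.10 and 5.14, 2.85 and 2.66, and 12.3 and 11.6 FPKM in the same order. SYTL2, a Rab27 effector in secretion, had 3.15 and 5.93, 13.8 and 15.2, 2.73 and 2.29, and 8.94 and 10.6 FPKM. In each of these genes every SYK-KO library exceeded every SYK-WT library of the same treatment. AAMDC (8.16 and 12.1 FPKM in SYK-WT, 27.4 and 26.1 in SYK-KO), the small heat shock protein gene CRYAB (4.61 and 4.40, 10.7 and 9.90) and SMCO4 (5.40 and 5.56, 11.4 and 11.9) also kept apart with EGF. Their differences with EGF were 1.37 ± 0.146, 1.25 ± 0.177 and 1.25 ± 0.097.

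**Figure D4:**
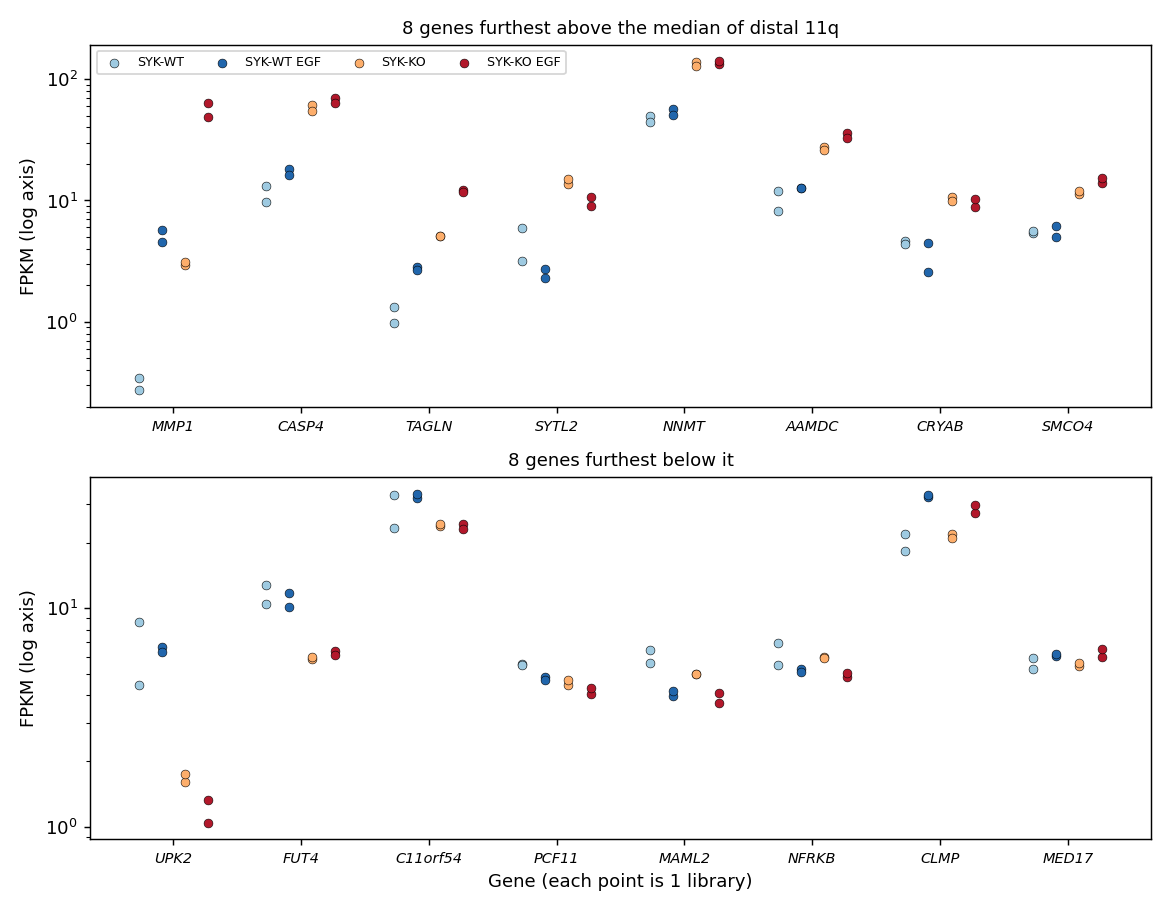
FPKM (log axis) of the 8 members furthest above and the 8 furthest below the median difference of distal 11q, 1 point per library, with the 4 groups side by side. In the upper panel the SYK-KO points of each treatment lie above the SYK-WT points for all 8 genes, and in the lower panel UPK2 and FUT4 have SYK-KO points well below the SYK-WT points.

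A small number of members went against their neighbours. UPK2, an integral membrane protein of the urothelium, had 4.49 and 8.68 FPKM in SYK-WT, 1.61 and 1.76 in SYK-KO, 6.68 and 6.30 in SYK-WT EGF and 1.05 and 1.34 in SYK-KO EGF. FUT4, a fucosyltransferase that makes the Lewis x antigen, had 12.8 and 10.5, 5.85 and 5.99, 11.8 and 10.2, and 6.36 and 6.12 FPKM in the same order. For both genes the SYK-KO libraries were lower without overlap, by -1.44 ± 0.225 and -0.86 ± 0.105 untreated and by -1.78 ± 0.225 and -0.73 ± 0.105 with EGF. FUT4 overlaps the row of PIWIL4, which had -0.13 and -0.11. PCF11, a factor of mRNA 3′ end processing, had -0.23 and -0.16, again without overlap. The other members that were lower in both conditions without overlap were PIWIL4, the channel TRPC6, the adhesion molecule DSCAML1 and PRDM10, which were named after their values were seen. The further members of the lower group had small differences. The Notch coactivator MAML2 had -0.22 and -0.06, C11orf54 -0.20 and -0.45, the adhesion molecule CLMP 0.10 and -0.19, NFRKB of the INO80 complex -0.05 and -0.06, and MED17 of the Mediator complex -0.02 and 0.03. The SYK-WT and SYK-KO groups of MED17 overlapped in both conditions, those of C11orf54, CLMP and NFRKB only untreated, and those of MAML2 only with EGF.

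The EGF responses were not used to choose the stretch, and single genes were tested for them with limma, with p-values adjusted by Benjamini-Hochberg over all 12112 rows and a threshold of 0.05. In SYK-WT cells EGF changed 41 of 197 members (20.8%), of which 22 rose (11.2%) and 19 fell (9.64%). Over all tested rows 26.7% passed, 14.7% up and 12.1% down. The difference between the shares was not tested. Their median response was -0.02, and 0.01 over all tested genes without small RNAs. Leaving out SYK-WT replicate 1 gave 85 members, leaving out SYK-WT EGF replicate 1 or 2 gave 18 or 16, and a fit of the compared groups alone gave 19. Of the members, 28 had a q-value under 0.05 for this comparison in the authors' deposited table, of which 26 were among the 41.

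Among the rises in SYK-WT cells, MMP1 was the largest, at 2.23 ± 0.137 on the log2 scale (SE; limma adjusted p = 8.96e-05). ETS1 went from 4.74 and 5.25 FPKM to 15.1 and 14.1, a rise of 1.38 ± 0.075 (limma adjusted p = 5.11e-05). ACER3 went from 1.95 and 1.83 to 4.92 and 4.60 FPKM (0.99 ± 0.084, limma adjusted p = 3.22e-04), and GAB2 rose by 0.75 ± 0.078 (limma adjusted p = 7.06e-04). The treated libraries of these 4 genes all lay above the untreated ones, and each call held with every alternative run in which the gene was tested. CLMP rose from 21.8 and 18.3 to 32.3 and 32.9 FPKM, and BCL9L, a coactivator of beta-catenin, from 10.1 and 11.0 to 15.9 and 16.8 FPKM (limma adjusted p = 0.00174 for each). CASP4 rose by 0.56 (limma adjusted p = 0.0183), and missed the threshold with either SYK-WT EGF library left out (adjusted p up to 0.117). BIRC2 rose by 0.44 (limma adjusted p = 0.0073, and 0.0584 without SYK-WT EGF replicate 2). BIRC3 rose by 0.62 ± 0.183 (limma adjusted p = 0.0394), but the call held in 5 of 16 alternatives. Among the leave-one-out fits it held only without SYK-WT replicate 1, where the rise was 0.91 (adjusted p = 0.00139). The rise was 0.34 without SYK-WT replicate 2, and over the alternatives the adjusted p ranged from 0.00139 to 0.188. CBL rose by 0.31 (limma adjusted p = 0.0405), with an adjusted p up to 0.19 in the alternatives that ended the call, which included leaving out SYK-WT replicate 2 or any SYK-KO or SYK-WT EGF library. YAP1, ATM and PAK1 did not pass (limma adjusted p = 0.176, 0.254 and 0.42).

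Falls in SYK-WT cells were smaller. TMEM45B went from 8.86 and 9.78 to 5.46 and 5.63 FPKM (-0.66 ± 0.095, limma adjusted p = 0.00269), and ZBTB44, a zinc finger protein, from 5.59 and 4.54 to 2.96 and 2.85 FPKM (-0.63 ± 0.096, limma adjusted p = 0.00331). Their treated libraries lay below the untreated ones. MAML2 fell by 0.46 (limma adjusted p = 0.00687, and 0.058 without SYK-WT EGF replicate 1). The sialyltransferase ST3GAL4 fell by 0.40 (limma adjusted p = 0.0106, up to 0.0764 without SYK-WT EGF replicate 1 or 2). SPA17, a sperm protein gene that shares its locus with SIAE, fell by 0.43 (limma adjusted p = 0.0452), a call that ended in 10 alternatives with an adjusted p of up to 0.253. All the leave-one-out fits were among the 10 except those that left out replicate 1 of SYK-WT or of SYK-WT EGF.

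In SYK-KO cells EGF changed 27 of 197 members (13.7%), with 18 up (9.14%) and 9 down (4.57%). Over all tested rows 11.8% passed, 6.67% up and 5.13% down. The count was 57 and 56 without SYK-WT replicate 1 and 2, 10 and 8 without SYK-KO replicate 1 and 2, 14 without either SYK-WT EGF library, and, for SYK-KO EGF, 8 without replicate 1 and 9 without replicate 2. It was 50 where only the groups compared entered the fit and 56 with library quality weights, which were added once the data had been seen. In both of these fits and without SYK-WT replicate 2 it exceeded the count in SYK-WT cells, so the order of the counts is not settled.

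MMP1 rose by 3.82 ± 0.137 in SYK-KO cells (limma adjusted p = 2.34e-05). ACER3 went from 3.08 and 2.77 to 7.07 and 7.84 FPKM (1.11 ± 0.084, limma adjusted p = 4.05e-04), TAGLN rose by 1.08 ± 0.093 (limma adjusted p = 6.21e-04), and ETS1 went from 7.86 and 8.22 to 14.98 and 15.6 FPKM (0.85 ± 0.075, limma adjusted p = 6.76e-04). These 4 calls held with every alternative run, and the treated and untreated libraries did not overlap. BIRC3 rose by 1.14 ± 0.183 (limma adjusted p = 0.00783), and its call ended when SYK-KO replicate 1 or replicate 2 of SYK-KO EGF was left out (adjusted p up to 0.065). BIRC2 rose by 0.56 (limma adjusted p = 0.00551, up to 0.0577 with replicate 1 of SYK-KO or of SYK-KO EGF left out). CBL rose by 0.34 (limma adjusted p = 0.0472), a call that held only in 6 of 16 alternatives (adjusted p up to 0.237) and in the leave-one-out fits only without a SYK-WT library. GAB2 rose by 0.43 ± 0.078 (limma adjusted p = 0.0118), which missed the threshold without any of the SYK-KO or SYK-KO EGF libraries (0.0702 to 0.105). The falls rested on few libraries. SIAE, a sialic acid esterase, fell by 0.44 (limma adjusted p = 0.0111, up to 0.12 with replicate 2 of SYK-KO or replicate 1 of SYK-KO EGF left out), and TMEM45B by 0.45 (limma adjusted p = 0.0215, up to 0.176 without SYK-KO replicate 2 or either SYK-KO EGF library). The serine protease PRSS23 (-0.31), GLB1L2 (-0.49) and the mitochondrial import chaperone TIMM8B (-0.35) also passed, but each call ended when any SYK-KO, SYK-WT EGF or SYK-KO EGF library was left out (adjusted p up to 0.217, 0.182 and 0.26).

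Both genotypes called 21 members in the same direction (10.7%), 15 up (7.61%) and 6 down (3.05%), and 0 in opposite directions. Over all rows the shares were 10%, 5.92% and 4.08%. All 4 groups of libraries enter both fits through a shared variance estimate, so the calls are not independent. Of the 21, the change was larger in SYK-KO cells for 9 and in SYK-WT cells for 12. By list, the signalling genes held 3 rises in SYK-WT and 4 in SYK-KO cells among 11 tested, with 0 falls, and the ubiquitin ligases and proteases 3 rises and 1 fall of 10 in each genotype. Over all rows 14.7% rose and 12.1% fell in SYK-WT cells, and 6.67% rose and 5.13% fell in SYK-KO cells, and nothing particular to the lists is read from such small counts. None of the 8 genes of the DNA damage list passed in either genotype. Of the mitochondrial genes 1 of 13 passed in each, ACAT1 up in SYK-WT and TIMM8B down in SYK-KO cells.

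**Figure D5:**
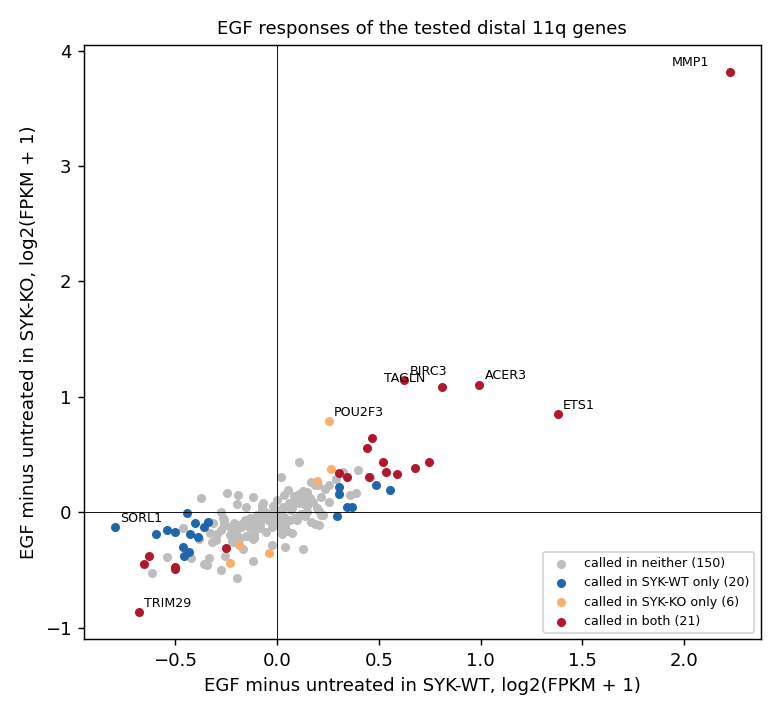
Change with EGF in log2(FPKM + 1) of the 197 tested members in SYK-WT (x axis) and SYK-KO cells (y axis), coloured by whether the gene passed in neither (150), SYK-WT alone (20), SYK-KO alone (6) or both (21). MMP1 lies apart at 2.23 and 3.82, and ETS1 has the next largest change in SYK-WT cells.

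The difference between the EGF responses, which equals the change of the genotype difference with EGF, was tested directly. By limma, 0 of 197 members passed, and 0.00826% of all rows did. At an unadjusted p under 0.05 there were 17 members (8.63%), against 8.83% of all rows. The median of the differences was 0.00 among members and -0.01 over all tested genes. Of the SYK-WT pair, leaving out replicate 1 gave 12 members and leaving out replicate 2 gave 1. MMP1 had the smallest adjusted p, with a response larger in SYK-KO cells by 1.59 ± 0.194 (limma adjusted p = 0.0694). It passed without SYK-WT replicate 1 (0.0116) or 2 (0.0313). Over the 16 alternatives its adjusted p ranged from 0.0116 to 0.628. With an added value of 0.1 FPKM in place of 1 the difference was 0.48, because the level in untreated SYK-WT cells lies below 1 FPKM. The ratio of mean FPKM between genotypes was 9.84 untreated and 10.9 with EGF. ETS1 was the next, with a response smaller in SYK-KO cells by -0.53 ± 0.106 (limma adjusted p = 0.288, and 0.033 without SYK-WT replicate 1). Its untreated level was higher in SYK-KO, and with EGF its groups overlapped. POU2F3, a transcription factor of tuft cells, had 0.0126 and 0.0137 FPKM in SYK-WT, 0.230 and 0.150 in SYK-KO, 0.252 and 0.165 in SYK-WT EGF and 1.06 and 1.05 in SYK-KO EGF, and was named for having the third smallest adjusted p. It reached 1 FPKM in the SYK-KO EGF libraries alone and was tested only because of them, so no difference or p is read from it.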

How the data were processed

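The authors made FPKM values per library and locus from paired-end RNA sequencing with TopHat, Cufflinks and Cuffdiff 2.2.1.3 on hg19, per the submitters' processing notes. Not given in the sources used here are the scaling between libraries, the absolute depth and the strand of reads, so antisense and overlapping genes cannot be told apart. Relative depth, from the steps of low values, ran from 0.85 to 1. The authors' deposited table also holds p-values and q-values, per the file headers, of which the q-values of EGF in SYK-WT cells were used. Groups and replicate numbers came from the sample titles, and a column was matched to every library. Starts are printed 1-based. Symbols were found for all but 216 of the rows from RefSeq (27218) and GENCODE (323) tables.

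FPKM are not counts, so limma 3.58.1 (R 4.3.3) was fitted with a mean-variance trend to log2(FPKM + 1) of the 12112 rows in which 2 or more libraries reached 1 FPKM, with 1 mean per group. The residual degrees of freedom were 4 and the prior 3.87. P-values were two-sided. The fit was tested on simulated data. The members, the 20 gene lists and the tests were chosen with earlier results of these data known. Genes were named by position (nearest the border and ends), distance from the members' median (8 each way, at least 5 FPKM), highest FPKM (6), largest EGF changes (5 each way per genotype, at least 5 FPKM in the higher group), smallest adjusted p for the difference of responses (3), up to 6 per list by level, and a fixed set (YAP1, BIRC2, BIRC3, MMP1, ATM, PAK1, GAB2, CBL). TRPC6, PIWIL4, DSCAML1, PRDM10, PDE2A and FOLR3 fell outside it. Alternatives varied the filter, the added value, the scaling, the groups fitted, a replicate block, quality weights, the border and each library left out. Tables and plots used python 3.11.15, pandas 2.3.3 and matplotlib 3.10.9. Only RNA was measured. A search of chromosome 11 for sites like the guides was not done here.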

Additional observations from a re-analysis of the deposited data

How the results depend on the processing

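The direction of the median difference between SYK-KO and SYK-WT held in every alternative run. With no filter on low values it was 0.166 untreated and 0.156 with EGF, since genes near 0 enter. With at least 5 FPKM it was 0.356 and 0.338, and with an added value of 0.1 FPKM 0.350 and 0.353. Leaving out each library in turn gave 0.291 to 0.350 untreated and 0.288 to 0.312 with EGF. The split of chromosome 11 began at 71709958 with no filter and at 71145457 with at least 5 FPKM, and stayed at 70313961 otherwise. With at least 5 FPKM the row at 70313961 was not kept, and 71145457 was the next row above CTTN. The counts of members changed by EGF moved with the libraries in the fit. With only the groups compared they were 19 in SYK-WT and 50 in SYK-KO cells, and with quality weights 56 in SYK-KO cells. Leaving out each library in turn gave 16 to 85 in SYK-WT cells, 8 to 57 in SYK-KO cells and 0 to 12 for the difference of the responses, with the highest of each without SYK-WT replicate 1. The lowest values were found without SYK-WT EGF replicate 2 for SYK-WT, and for SYK-KO cells without replicate 2 of SYK-KO or replicate 1 of SYK-KO EGF. For the genes named under the EGF comparisons, 1004 values kept their side of the threshold, 119 fell behind it, 20 passed it and 0 reversed.

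The replicate numbers were not shown to pair libraries: the deviations of SYK-WT, SYK-KO and SYK-KO EGF correlated with one another at 0.16 to 0.27, but those of SYK-WT EGF with the other groups at -0.38 to -0.16. With a replicate block the counts were 49 in SYK-WT, 28 in SYK-KO and 0 for the difference, and with the SYK-WT EGF numbers crossed, chosen after the data were seen, 46, 24 and 1. The causes of these changes were not tested. Depth limits what can be said of the 252 members under the filter, which were not tested.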
